A study of Mus musculus with 6 samples.

Results

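This section describes 8 genes of the corticosteroid response in lungs of mice given lipopolysaccharide (LPS), a bacterial cell wall component, or saline into the trachea. The genes are the receptors Nr3c1 and Nr3c2, the steroid-activating enzyme gene Hsd11b1, and the response genes Fkbp5, Tsc22d3, Sgk1, Errfi1 and Zbtb16. They were chosen by name, and all 8 were found among the 23183 genes of the tables. The 8 genes and the gene lists used below were chosen with earlier results of these data known. Counts of calls among them, and tests of ratios between them, are therefore no independent evidence. RNA of the lung was sequenced in 3 saline and 3 LPS libraries, 6 in all, from mice of the C57BL/6 background. The saline libraries are labelled wild type. The titles of the LPS libraries also name wild type, whereas the genotype field gives LCN2-/- for LPS 1 and LPS 2 and LCN4-/- for LPS 3. Lcn2 had values of 8.20, 11.28 and 10.11 in saline and 13.60, 13.29 and 13.82 in LPS, on the log2 scale described with the other values, so its transcript was abundant in both libraries labelled LCN2-/-, which goes against that label. The labels do not say which part of the gene would be deleted. Lcn4 was low in all 6 libraries (0.14 to 0.70) and checks nothing. If the genotype field is right, genotype and LPS cannot be told apart in any difference given here. LPS 3 would then also differ in genotype from LPS 1 and LPS 2. The labels used here give no age, dose or time after instillation. They also do not say whether each library is a different mouse, and the p-values therefore cover only library-to-library spread, which may be technical.

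Glucocorticoids, corticosterone in the mouse, bind the glucocorticoid receptor (GR, gene Nr3c1) in the cytoplasm, where it is held by HSP90 and its cochaperones. The bound receptor moves to the nucleus, raises genes such as Fkbp5 and Tsc22d3 through palindromic DNA elements and restrains inflammatory genes. The mineralocorticoid receptor (MR, gene Nr3c2) binds the same hormone and aldosterone. HSD11B1 regenerates active hormone inside cells and HSD11B2 inactivates it. In the lung the pathway is known for driving fetal maturation, for supporting sodium and fluid uptake across the alveolar epithelium and as the target of inhaled anti-inflammatory steroids.

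Values are log2(expression value + 1) as deposited, differences are LPS minus saline on that scale, and fold changes taken from it understate changes where values are low. A gene was called where its adjusted p was under 0.05 in limma with Benjamini-Hochberg adjustment over 13116 tested genes, and all 8 genes passed the filter on low values. The number of reads behind each value is unknown. The lung label was borne out by alveolar and airway genes in all libraries (Ager 9.86 to 10.34, Scgb1a1 15.90 to 17.32). Saline 2 stood apart from the other saline libraries in its neutrophil markers, whose summed value before the log was 1978 against 659 and 707. The alphabetical table of LPS 3 breaks off within the letter S, so Tsc22d3 and Zbtb16 have no value there and were fitted on 5 libraries.

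Of the 8 genes, 5 rose in LPS and 3 fell. Among all tested genes 25.7% were called higher, 24.3% lower and 50.1% in either direction, so a call in itself was common in this comparison. The response genes Fkbp5, Errfi1, Tsc22d3, Sgk1 and Zbtb16 made up the rises. Both receptor genes and Hsd11b1 made up the falls. For each of the 8 the LPS and saline values did not overlap: 5 genes lay wholly above saline, as did 32.7% of tested genes, and 3 lay wholly below it, as did 30.7% (63.4% in either direction). The rise of Zbtb16 was the least secure of these calls, as described with its values.

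**Figure D1:**
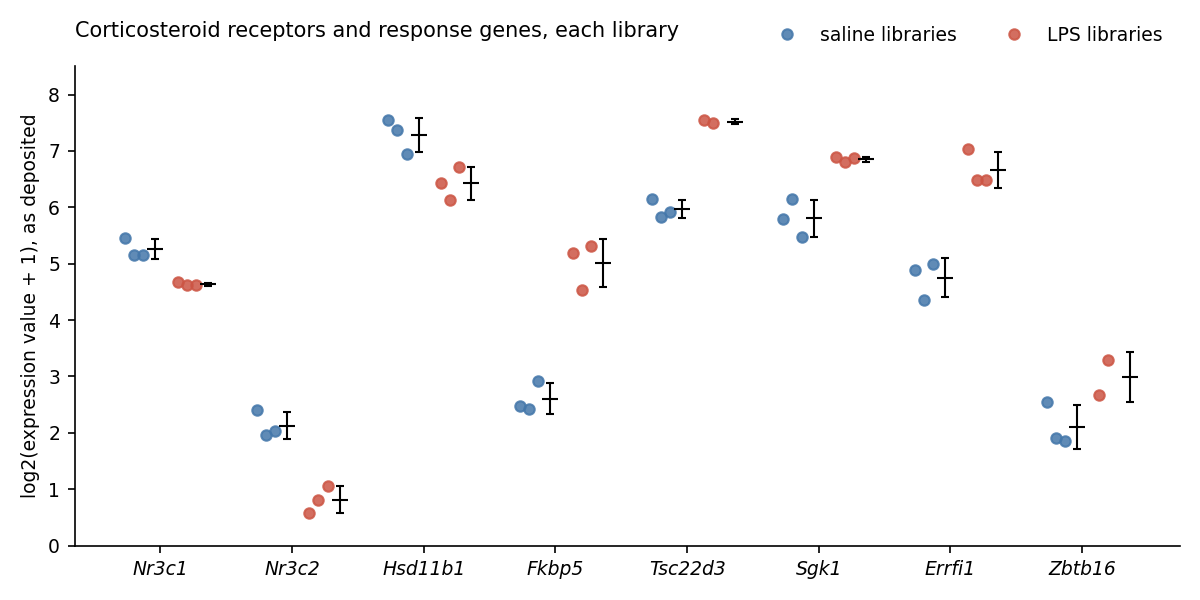
Deposited log2(expression value + 1) of the 8 genes on the vertical axis, with 1 point per library (blue saline, red LPS) and black marks for the group mean ± SD. Points of the 2 groups do not overlap for any gene, and Tsc22d3 and Zbtb16 have 2 LPS points.

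Both receptor genes were lower in LPS. Nr3c1 (chromosome 18, minus strand) had values of 5.46, 5.16 and 5.15 in saline and 4.67, 4.62 and 4.62 in LPS. The LPS libraries lay close together, below all saline libraries, and saline 1 was the highest. The mean went from 5.26 ± 0.18 (SD, n = 3) to 4.64, a fall of 0.62 (SE 0.15; limma adjusted p = 0.00732), or 1.54-fold. Nr3c1 remained an abundant transcript, with a value above that of 84.5 to 84.6% of the genes in each LPS table. In saline this share was higher, at 90.1 to 92.9%, and the shares count genes at 0. In whole tissue, fewer cells of a type and less RNA per cell cannot be told apart.

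Nr3c2 (chromosome 8, 76899442 to 77245012, plus strand, mm10) had values of 2.40, 1.96 and 2.03 in saline and 0.58, 0.81 and 1.05 in LPS. All LPS values were low and below every saline value. The mean was 2.13 ± 0.24 (SD, n = 3) in saline and 0.81 ± 0.24 (SD, n = 3) in LPS, a fall of 1.32 (SE 0.18; limma adjusted p = 0.000567), or 2.49-fold. With 0.1 in place of 1 as the added constant the fall was 2.05. Only 4.87% of tested genes had a lower difference, against 18.7% for Nr3c1.

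The balance of the 2 receptor transcripts was compared within each library, where a scaling factor of the library cancels. The value of Nr3c1 before the log was 10.1, 12.1 and 11.2 times that of Nr3c2 in saline and 49.8, 31.5 and 21.9 times in LPS. Every LPS ratio was above every saline ratio, and the LPS ratios were further apart. The mean log2 ratio was 3.47 ± 0.13 (SD, n = 3) in saline and 5.02 ± 0.59 (SD, n = 3) in LPS, a difference of 1.55 (exact permutation test, two-sided, p = 0.1, the smallest p that 3 against 3 allows). The difference was 0.78 after quantile normalization, and the LPS ratios rest on the low values of Nr3c2.

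Hsd11b1 was lower in LPS while Hsd11b2, which acts in the opposite direction on the hormone, was higher. Hsd11b1 (chromosome 1, 193221634 to 193264075, minus strand) had values of 7.54, 7.37 and 6.94 in saline and 6.44, 6.13 and 6.71 in LPS. In saline it was the most abundant of the 8 transcripts, above 97.7 to 98.5% of the genes in each table, and saline 3 and LPS 3 were the nearest libraries of the 2 groups. The mean went from 7.28 ± 0.31 (SD, n = 3) to 6.43 ± 0.29 (SD, n = 3), a fall of 0.86 (SE 0.22; limma adjusted p = 0.00978), or 1.81-fold, and quantile normalization gave a fall of 1.43. Hsd11b2 had low values of 0.71, 1.09 and 1.08 in saline and 2.66, 2.65 and 2.86 in LPS. It rose by 1.76 (SE 0.16; limma adjusted p = 9.74e-05), with no overlap between the groups. H6pd, which supplies the cofactor of HSD11B1, differed by 0.049 (95% interval -0.37 to 0.47; limma adjusted p = 0.843), and by -0.35 after quantile normalization and -0.74 with equal sums.

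Within libraries the value of Hsd11b1 before the log was 292, 144 and 110 times that of Hsd11b2 in saline, and 16.1, 13.1 and 16.5 times in LPS. The activating enzyme's transcript was thus the more abundant of the pair in all 6 libraries, by a smaller factor in LPS. This ratio was formed after the values of both genes were known and was not tested.

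**Figure D2:**
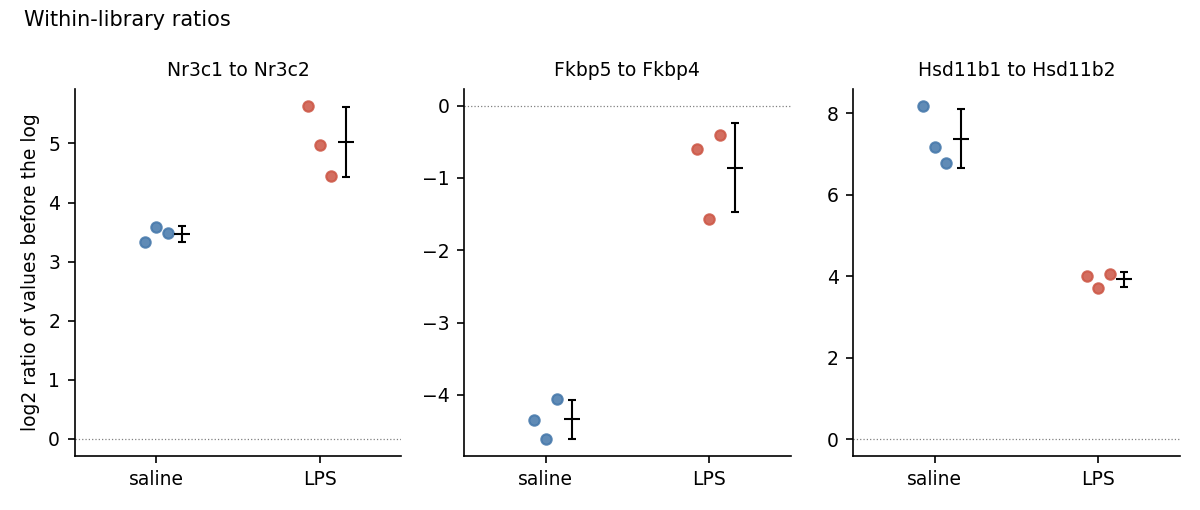
Log2 ratios of values before the log within each library for Nr3c1 to Nr3c2, Fkbp5 to Fkbp4 and Hsd11b1 to Hsd11b2, with blue points for saline, red for LPS and black marks for the mean ± SD of 3 libraries. LPS ratios lie above saline ratios in the first and second panels and below them in the third, and the dotted line marks equal values.

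Fkbp5, which encodes a cochaperone that lowers the receptor's affinity for hormone and is itself raised by the receptor, had the largest rise of the 8. Its values (chromosome 17, 28399094 to 28517527, minus strand) were 2.48, 2.42 and 2.92 in saline and 5.18, 4.54 and 5.32 in LPS. LPS 2 was the lowest LPS library and was still far above saline 3, the highest saline library. The mean was 2.61 ± 0.27 (SD, n = 3) in saline and 5.01 ± 0.42 (SD, n = 3) in LPS, a difference of 2.41 (SE 0.23; limma adjusted p = 0.000119), or 5.30-fold. The difference exceeded that of 98.6% of tested genes.

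Fkbp4, whose protein competes with FKBP5 for HSP90 and favours receptor transport to the nucleus, moved the other way. Its values were 6.55, 6.74 and 6.79 in saline and 5.76, 6.06 and 5.72 in LPS, a fall of 0.85 (SE 0.16; limma adjusted p = 0.00277). Within libraries the value of Fkbp5 before the log was 0.0493, 0.0410 and 0.0599 times that of Fkbp4 in saline and 0.663, 0.339 and 0.751 times in LPS. Fkbp4 was the more abundant of the pair in every library, by a far smaller factor in LPS. The mean log2 ratio differed by 3.48 (exact permutation test, two-sided, p = 0.1, the smallest possible here).

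Among 17 listed chaperone genes of the receptor, Fkbp4 included, 6 rose, 2 fell (Fkbp4 and St13) and 9 missed the threshold. Over all tested genes 25.7% were called higher and 24.3% lower. The median difference of the list was 0.43 against 0.018 over all tested genes. These counts depended on the scaling, since the median was -0.048 after quantile normalization (1 higher, 5 lower) and -0.34 on the equal-sums scaling (0 higher, 8 lower), in which all libraries are brought to 1 total of values before the log. Ptges3, which encodes the cochaperone p23, rose by 0.92 (SE 0.17; limma adjusted p = 0.00233), which passed under neither of these scalings. Hspa1a passed narrowly (0.72, SE 0.27; limma adjusted p = 0.0489) although its LPS and saline values overlapped. St13 also passed narrowly (-0.51, SE 0.19; limma adjusted p = 0.0497), with no overlap and no value in LPS 3. Both calls ended in 11 of 15 alternative analyses. Hspa1a has a near-identical copy, Hspa1b, so its value is uncertain.

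For the HSP90 genes, Hsp90aa1 differed by -0.062 (95% interval -0.52 to 0.39) and Hsp90ab1 by -0.47 (95% interval -0.93 to -0.011; limma adjusted p = 0.0808). With quantile normalization and with equal sums both HSP90 genes were called lower. Hspa8, the listed chaperone with the highest mean, differed by 0.48 (limma adjusted p = 0.0941), a value that was -0.42 after quantile normalization and -0.33 with equal sums.

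The remaining response genes were higher in LPS by differing amounts. Tsc22d3 (chromosome X, 140539528 to 140600659, minus strand) encodes GILZ, a leucine zipper protein that binds NF-kB and AP-1. Its values were 6.14, 5.83 and 5.92 in saline and 7.55 and 7.49 in LPS 1 and LPS 2. The 2 LPS values were nearly equal and stood well above saline. Tsc22d3 rose by 1.55 (SE 0.18; limma adjusted p = 0.000433), or 2.93-fold, and by 0.99 with quantile normalization. It had the highest mean of the 8 genes in LPS, at 7.52.

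Sgk1 (chromosome 10, 21882184 to 21999903, plus strand) encodes a kinase that promotes sodium channel activity. Its values were 5.80, 6.14 and 5.48 in saline and 6.89, 6.81 and 6.87 in LPS. The saline libraries were spread (SD 0.33, n = 3) and the LPS libraries lay close together. Sgk1 rose by 1.05 (SE 0.19; limma adjusted p = 0.00200), or 2.07-fold. With quantile normalization the rise was 0.54, and the call ended with equal sums (0.26, limma adjusted p = 0.159).

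Errfi1 (chromosome 4, 150853919 to 150868892, plus strand) encodes a cytoplasmic inhibitor of the EGF receptor kinase. Its values were 4.89, 4.35 and 4.996 in saline and 7.03, 6.48 and 6.48 in LPS. LPS 1 was the highest library and saline 2 the lowest. Errfi1 rose by 1.92 (SE 0.22; limma adjusted p = 0.000272), or 3.78-fold, and by 1.13 with equal sums.

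Zbtb16 (chromosome 9, 48654297 to 48836222, minus strand) encodes PLZF, a zinc finger repressor found in innate-like lymphocytes and raised by glucocorticoids in many cell types. Its values were low, at 2.56, 1.90 and 1.86 in saline and 2.67 and 3.30 in LPS 1 and LPS 2. The groups were separated only by the gap between saline 1 and LPS 1. The difference was 0.88 (SE 0.27; limma adjusted p = 0.0248). The call ended without saline 2 (0.78, limma adjusted p = 0.0771), without saline 3 (0.75, limma adjusted p = 0.0760), without LPS 2 (0.56, limma adjusted p = 0.184) and with equal sums (0.21, limma adjusted p = 0.550). Leaving out LPS 1 or LPS 2 leaves this gene, and Tsc22d3, with a lone LPS value that is assumed to vary like the rest.

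Since the response genes rose in the same libraries, the sequence upstream of their starts was searched for the palindrome that the GR and MR bind. RefSeq windows (GRCm38.p6, the mm10 build) were found for 6 of the 8 genes, 14 windows in all, and the 250 bases before each start were used. The full element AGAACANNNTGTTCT, read on both strands, was found in 1 of these windows, at Sgk1. Sgk1 has more windows than any other of these genes, and so more places for a match. Over all genes it was found in 3 of 32851 windows (0.00913%), the others belonging to Acnat2 and Gm35041. The looser core GNACANNNTGTNC, which overlaps the full element, was found in 0.387% of all windows and, among the 8 genes, in the same Sgk1 window. A single arm of it, TGTTCT, was found in 16.1% of all windows and, among the 8 genes, only in windows of Sgk1 and Tsc22d3. The Sgk1 element lies at chromosome 10, 21993701 to 21993715. It ends 175 bases before an annotated start at 21993890, and the window touches no annotated exon of Sgk1 but is spanned by 5 longer transcripts of it. The tables give 1 value per gene, so which start was used was not measured. Shown first is this window (chr10:21993640-21993889, plus strand), with capitals for the palindrome and a separate single arm. For contrast the windows of Fkbp5 (chr17:28486150-28486399, minus strand) and Errfi1 (chr4:150854820-150855069, plus strand) follow, the genes with the largest rises, which hold neither and so have no capitals. Both windows lie inside their genes, spanned by 3 longer transcripts of Fkbp5 and 1 of Errfi1. No GENCODE transcript starts right after this Errfi1 window, and Errfi1 has another window, also without a match.
Sgk1: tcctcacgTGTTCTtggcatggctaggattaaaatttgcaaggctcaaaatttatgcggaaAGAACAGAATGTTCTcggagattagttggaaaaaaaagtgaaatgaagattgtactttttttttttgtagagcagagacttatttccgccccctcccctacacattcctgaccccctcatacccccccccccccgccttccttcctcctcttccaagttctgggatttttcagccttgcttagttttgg
Fkbp5: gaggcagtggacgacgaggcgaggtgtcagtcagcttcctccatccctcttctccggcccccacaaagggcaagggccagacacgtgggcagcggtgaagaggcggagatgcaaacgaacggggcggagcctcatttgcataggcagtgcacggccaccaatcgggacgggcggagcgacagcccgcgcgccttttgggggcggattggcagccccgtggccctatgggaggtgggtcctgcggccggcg
Errfi1: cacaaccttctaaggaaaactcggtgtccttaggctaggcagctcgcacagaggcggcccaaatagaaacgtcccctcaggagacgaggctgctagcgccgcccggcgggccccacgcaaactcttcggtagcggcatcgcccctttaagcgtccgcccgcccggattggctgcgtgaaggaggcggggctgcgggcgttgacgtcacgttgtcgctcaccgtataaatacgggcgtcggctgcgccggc
A match describes these letters alone, and a window without one says nothing of elements farther from the start.

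The order of the 8 levels changed between the groups. The values before the log appear to be scaled by gene length, so levels may be set beside each other. In saline the order by mean was Hsd11b1, Tsc22d3, Sgk1, Nr3c1, Errfi1, Fkbp5, Nr3c2 and Zbtb16, and the ranges of neighbours overlapped for Tsc22d3 with Sgk1 and for Nr3c2 with Zbtb16. In LPS the order was Tsc22d3, Sgk1, Errfi1, Hsd11b1, Fkbp5, Nr3c1, Zbtb16 and Nr3c2. Here the ranges overlapped for Sgk1 with Errfi1, Errfi1 with Hsd11b1 and Fkbp5 with Nr3c1. Hsd11b1 thus went from the first to the fourth place and Fkbp5 from below Nr3c1 to a level that overlapped it.

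All directions kept their sign under the 3 scalings, but sizes moved. With equal sums the median of all tested genes was -0.68, against 0.018 as deposited. On that scaling Fkbp5 differed by 1.68, Tsc22d3 by 0.74, Nr3c1 by -1.40, Nr3c2 by -1.82 and Hsd11b1 by -1.65. Taken relative to the median of all tested genes, the equal-sums differences were 2.36 for Fkbp5, 1.81 for Errfi1, 1.42 for Tsc22d3, 0.93 for Sgk1, 0.88 for Zbtb16, -0.72 for Nr3c1, -0.97 for Hsd11b1 and -1.14 for Nr3c2. Equal sums multiplies each library by 1 factor, and subtracting the median largely undoes that by construction. These relative values are therefore no check of stability, and Sgk1 and Zbtb16 lost their calls with equal sums.

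**Figure D3:**
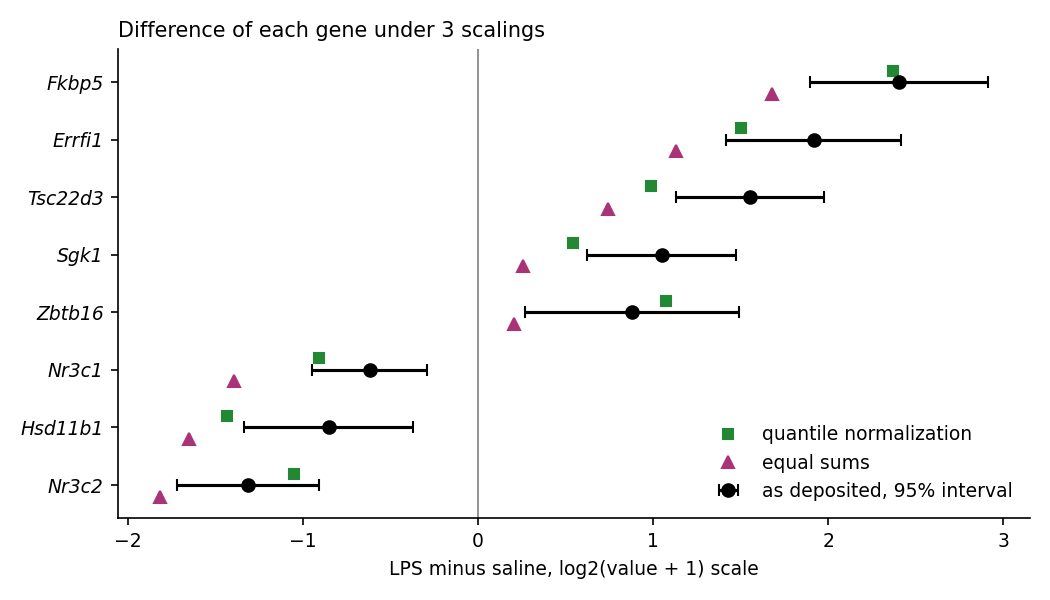
LPS minus saline on the log2(value + 1) scale for each gene: black points with the 95% interval as deposited, green squares after quantile normalization and purple triangles with equal sums. Every gene keeps its side of 0, and the equal-sums values of Sgk1 (0.26) and Zbtb16 (0.21) come nearest to it.

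Other listed genes of the pathway were read against the same background, in lists written with earlier results of these data known. Of 30 tested genes known to be raised by glucocorticoids, 9 rose, 5 fell and 16 did not pass, and the median was 0.15 (-0.026 after quantile normalization with 8 higher and 6 lower, -0.62 with equal sums with 6 higher and 15 lower). The largest rises were in Angptl4 (2.70, SE 0.25), an inhibitor of lipoprotein lipase, and the cell cycle inhibitor gene Cdkn1a (2.55, SE 0.19). The largest falls were in the ceramidase gene Acer2 (-1.25, SE 0.24) and the forkhead factor gene Foxo3 (-1.17, SE 0.23). The highest limma adjusted p of these 4 was 0.00296, for Foxo3. The share of this list called higher or lower (9 and 5 of 30) was near the 25.7% and 24.3% of all tested genes.

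All 18 tested genes that both glucocorticoids and inflammatory signals raise were higher in LPS, with a median of 3.36, among them the metallothionein gene Mt2 (6.51, SE 0.50). Over all tested genes 25.7% were called higher and 24.3% lower, with a median of 0.018. Of this list 18 were called higher with quantile normalization and 17 with equal sums. Among 17 tested genes that glucocorticoids repress, 13 rose and 1 fell, with a median of 3.99. Quantile normalization gave 12 higher and 1 lower, and equal sums 12 higher and 2 lower. The chemokine genes Cxcl2 (7.17, SE 0.66) and Cxcl1 (5.86, SE 0.41) rose most, and the phospholipase gene Pla2g2d fell by 1.67 (SE 0.45; limma adjusted p = 0.0137). The Pla2g2d call ended with no filter beyond a value above 0 (limma adjusted p = 0.0712) and at a threshold of 0.01. Inflammatory signals are known to raise genes of both lists, so these directions are no independent evidence on glucocorticoids.

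Of 19 tested coactivators and corepressors of the receptor, 8 fell, 3 rose and 8 did not pass, beside 24.3% lower and 25.7% higher over all tested genes. The median was -0.35 (-0.36 after quantile normalization with 7 lower, and -1.09 with equal sums with 16 lower, where the median of all tested genes was -0.68). The acetyltransferase gene Crebbp fell by 1.09 (SE 0.17; limma adjusted p = 0.00104) and the arginine methyltransferase gene Carm1 by 1.02 (SE 0.16; limma adjusted p = 0.00121). Prmt1 (0.80) and Hnrnpu (0.68) rose, but 0 of the list were called higher with quantile normalization or with equal sums, where Hnrnpu turned to -0.11.

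For steroid supply and clearance, a list that holds Hsd11b2, 9 of 17 genes were tested. Of these 3 rose, 2 fell and 4 missed the threshold, beside 25.7% higher and 24.3% lower over all tested genes. The median was 0.041 (-0.12 after quantile normalization, -0.75 with equal sums with 3 higher and 6 lower). Akr1c14, a hydroxysteroid dehydrogenase gene, had values of 5.39, 5.31 and 5.02 in saline and 6.67, 6.94 and 7.52 in LPS, a rise of 1.80 (SE 0.23; limma adjusted p = 0.000383). The steroid efflux pump gene Abcb1a fell by 1.40 (SE 0.15; limma adjusted p = 0.000199). Its close paralogue Abcb1b, named after its values were seen, rose by 1.43 (SE 0.20; limma adjusted p = 0.000604). The 2 sequences are alike, so how reads were shared between them is uncertain. Cyp3a13 fell by 0.70 (SE 0.16; limma adjusted p = 0.00698) but did not pass after quantile normalization. Hsd17b11, the listed gene with the highest mean, differed by 0.041 (limma adjusted p = 0.835), and by -0.45 and -0.75 under the other scalings. The adrenal synthesis gene Cyp11b1 was listed at 0 in all 6 libraries.

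Of 13 tested genes of aldosterone response and sodium transport, 5 rose, 1 fell and 7 did not pass, beside 25.7% higher and 24.3% lower over all tested genes. The median was 0.34. Quantile normalization gave 2 higher and 1 lower (median 0.16), and equal sums turned the balance to 1 higher and 5 lower (median -0.39). Besides Hsd11b2 the largest rise was in the chloride cotransporter gene Slc12a2 (0.93, SE 0.16; limma adjusted p = 0.00163), which did not pass with equal sums. Nedd4, a ubiquitin ligase gene, fell by 0.91 (SE 0.18; limma adjusted p = 0.00285). In a list of ErbB receptors, ERRFI1 partners and related signalling genes, 4 of 12 tested genes rose, 1 fell and 7 did not pass. The shares over all tested genes are those just given, and the median was 0.19. Quantile normalization gave the same counts, and equal sums turned the balance to 2 higher and 7 lower (median -0.53). The adaptor gene Stap2 (1.68, SE 0.24) and the signalling inhibitor gene Spry4 (1.54, SE 0.25) rose, both without a value in LPS 3. The receptor gene Erbb3 fell by 1.18 (SE 0.24; limma adjusted p = 0.00396). Dusp6, the listed gene with the highest mean, differed by 0.42 (limma adjusted p = 0.120), a value that was -0.024 after quantile normalization and -0.37 with equal sums.

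**Figure D4:**
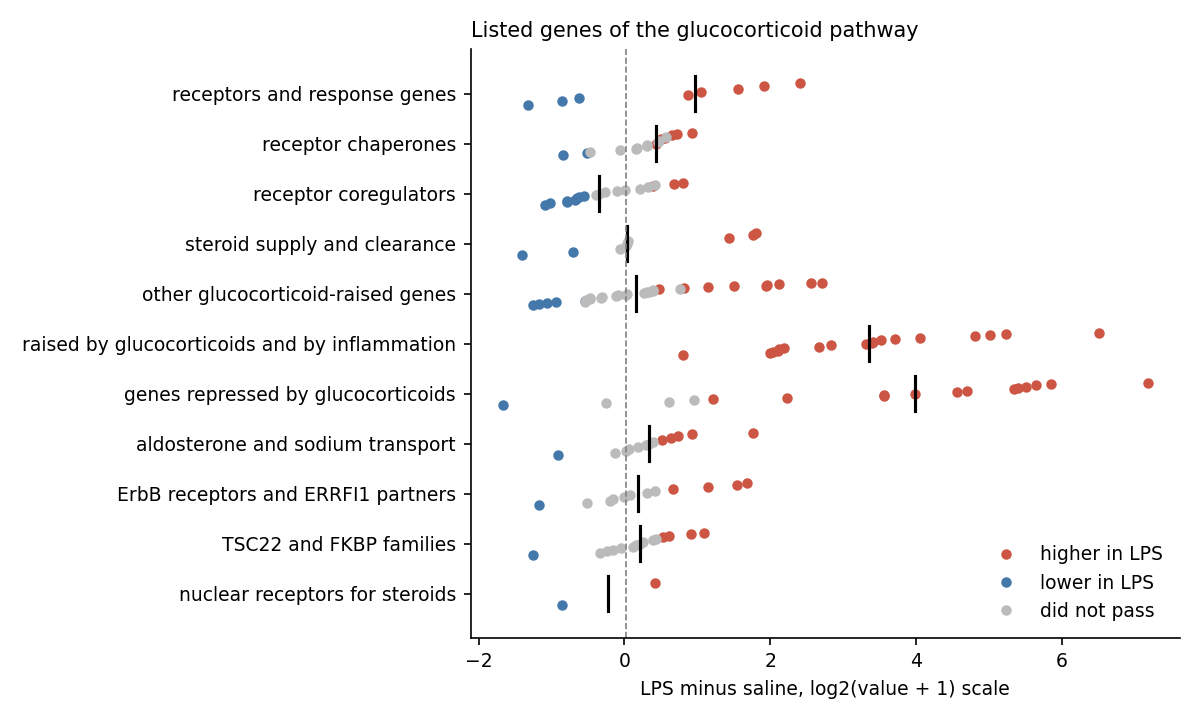
LPS minus saline on the log2(value + 1) scale for the 8 genes (top row) and for the tested genes of 10 pathway lists, coloured by call (red higher, blue lower, grey did not pass), with a black bar at each list's median and a dashed line at the median of all tested genes (0.018). The list raised by both glucocorticoids and inflammation and the list of repressed genes have medians of 3.36 and 3.99, and the other lists have medians between -0.35 and 0.43.

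Markers of several cell types moved in the same libraries, where 25.7% of all tested genes were called higher and 24.3% lower. Sums are over markers with a value in every library, so they can cover other genes than the counts. They hold 9 fibroblast, 9 endothelial, 8 adipocyte, 7 cardiac muscle and 7 smooth muscle markers. Library totals over genes with 6 values also differed, at 467483 to 552368 in saline and 854330 to 885427 in LPS. Of 11 tested neutrophil markers 10 rose, and their summed value before the log was 659 to 1978 in saline and 9834 to 25592 in LPS. All 10 monocyte and recruited macrophage markers rose (359 to 604 against 1343 to 2318), and 8 were called higher with equal sums. Of 10 fibroblast markers 8 fell, with sums of 1899 to 2866 in saline and 694 to 819 in LPS. Of 10 endothelial markers 4 fell and 1 rose (899 to 985 against 683 to 791). Of 7 tested adipocyte markers 6 fell, with sums of 64.4 to 122 in saline and 13.2 to 22.3 in LPS, where Adipoq, Plin1, Cfd and Lep were at 0 in at least 1 library. All 10 cardiac muscle markers fell, with sums of 258 to 2206 in saline, a wide spread, and 54.4 to 176 in LPS. Of 8 B cell markers 7 fell (230 to 362 against 48.3 to 78.2), and of 8 smooth muscle markers 6 fell (247 to 411 against 107 to 233). For alveolar macrophages 1 of 10 markers rose and 5 fell, and for alveolar type 2 cells 1 of 10 rose and 5 fell. For alveolar type 1 cells 4 of 8 fell and 0 rose. Of 8 club and ciliated cell markers 2 rose and 2 fell, and of 10 T cell and NK cell markers 3 fell and 0 rose. The part of these shifts in the rises of the response genes and the falls of Nr3c1, Nr3c2 and Hsd11b1 was not tested.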

How the data were processed

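The authors deposited 1 table per library with a gene symbol and a value on a log2 scale, a unit read from the values (at least 0, not whole, with exact zeros). Exact zeros numbered 3869 in each saline library, against 6097, 6223 and 5117 in LPS 1, LPS 2 and LPS 3. Whether both groups were processed alike is not known. A processing difference could not be told apart from LPS in any difference given here. TopHat and mm10 are named per the submitters' processing notes. The counter, annotation and scaling were not given in the sources used here. Low values of genes with 1 transcript, multiplied by transcript length, gathered in steps: the fullest 5% bin held 34 to 58 genes per library, against 15 to 23 for the values alone. LPS 3 lacks 4484 genes. Depth is unknown, so no count-based limit is given.

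Genes with a value of at least 1 before the log in 3 libraries were fitted with limma 3.58.1 (R 4.3.3, variance trend), with Benjamini-Hochberg adjustment and a threshold of 0.05. The fit was tested on simulated data. The 8 genes and all lists were chosen with earlier results of these data known. The genes named were the 8, Fkbp4, Hsd11b2, H6pd, Hsp90aa1 and Hsp90ab1, and from each list up to 2 called genes per direction by size and the gene of highest mean where it did not pass; 2 genes that this rule names are not reported here. Sequences are from RefSeq (GRCm38.p6) and loci from GENCODE M21.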

Additional observations from a re-analysis of the deposited data

How the results depend on the processing

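Fkbp5, Errfi1, Tsc22d3, Nr3c1, Nr3c2 and Hsd11b1 kept direction and call in every alternative that tested them. Sgk1 lost its call with equal sums (0.26). Zbtb16 lost its call with no filter beyond a value above 0 (0.88, limma adjusted p = 0.0998), with equal sums (0.21), at a threshold of 0.01 (0.88), without saline 2 and LPS 3 together (0.78) and with the replicate block (0.75); leaving out 1 library at a time gave 0.56 to 1.19. With equal sums 3 of the 8 genes were called higher, as with only genes that have 6 values, where 6 of the 8 remain. Over all genes the calls were 798 higher and 8343 lower with equal sums, 2033 higher and 2004 lower at 0.01 as threshold, and 1752 lower with a mean of at least 5. Over the pathway lists (64 higher, 22 lower) they were 39 and 69 with equal sums and 14 lower with a mean of at least 5.

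Among the other genes named, signs turned with equal sums for Esrra (-0.34), Dusp6 (-0.37), H6pd (-0.74), Hnrnpu (-0.11), Hsd17b11 (-0.75) and Hspa8 (-0.33). They turned with quantile normalization for Dusp6 (-0.024), H6pd (-0.35), Hsd17b11 (-0.45) and Hspa8 (-0.42), and without saline 2 and LPS 3 together for H6pd (-0.22) and Hsp90aa1 (0.072). Leaving out 1 library at a time gave -0.12 to 0.15 for H6pd, -0.041 to 0.087 for Hsd17b11 and -0.15 to 0.077 for Hsp90aa1. The cause was not tested.

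The replicate numbers are shared by the groups, but same-numbered libraries did not deviate together (correlations of -0.23, -0.078 and -0.25 across genes), so they were not treated as pairs. With the replicate block 2793 genes were called higher and 2624 lower, against 3377 and 3188. The mean ratio differences (1.55 and 3.48) are the same with the block by construction, so they are no check of stability (exact sign-flip p = 0.25, the smallest possible).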

Other observations

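Relatives of the listed genes did not move as one. Of 15 tested genes listed from the TSC22 and FKBP families, 4 rose, 1 fell and 10 missed the threshold. The list leaves out Fkbp5 and Tsc22d3, which rose, and Fkbp4, which fell. Within it the share that rose was near the 25.7% of all tested genes. The median was 0.21. Quantile normalization gave 4 higher and 3 lower (median -0.25), and equal sums 0 higher and 9 lower (median -0.54). Fkbp1b rose by 1.09 (SE 0.14; limma adjusted p = 0.000376) and Fkbp1a, whose protein binds tacrolimus, by 0.91 (SE 0.17; limma adjusted p = 0.00230), and neither passed with equal sums. Fkbp9, an endoplasmic reticulum member, fell by 1.26 (SE 0.16; limma adjusted p = 0.000377). The orphan receptor gene Esrra rose by 0.42 (SE 0.15; limma adjusted p = 0.0437), did not pass in 11 alternatives and was -0.34 with equal sums.

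For the 6 of the 8 genes with a value in every library, which leaves out Tsc22d3 and Zbtb16, the genes with the nearest profile over the libraries were found from the root mean square difference of values centred on each gene's mean, among 10294 other genes with 6 values. Nearest to Nr3c1 were Mga (0.039) and Kctd7 (0.040), and to Nr3c2 Edn3 (0.025) and Btbd3 (0.052). Nearest to Hsd11b1 were Dpp8 (0.081) and Ghr (0.093), and to Sgk1 Gm15417 (0.071) and Eif4ebp1 (0.074). Errfi1 had Sdc4 (0.17) and Fosl2 (0.18), and Fkbp5 had Cdkn1a (0.22) and Sema7a (0.22). Of these 6, the 2 with the largest rises had the most distant nearest neighbours. Libraries are few and the groups dominate these profiles, so the neighbours are a description only.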
